A study of Homo sapiens with 4 samples.

Results

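The genes of the nuclear pore complex and of the receptors that carry cargo through it were followed in a measurement of RNA synthesis after acute depletion of IWS1. The rule that picks the set uses gene names and no measured value. It takes the genes whose symbols mark them as nucleoporins (the NUP series, TPR, NDC1, POM121, SEH1L, AAAS, RAE1) or as importin alpha or importin beta family members (KPNA, KPNB1, IPO, XPO, TNPO, CSE1L). It also takes RAN, the GTPase that works with these receptors, and NXT1, the partner of the mRNA export receptor NXF1. XPO5 was left out, and RANBP2, RANGAP1, RCC1 and NXF1, which the rule also names, were not analysed here. In all, 45 of the 10147 genes in the deposited table are members, and all 45 were tested among the 10136 genes that had reads. RNA synthesis was measured by TT-seq, in which new RNA is labelled with 4-thiouridine (4sU), here at 500 µM for 5 min, purified and sequenced. The cells were K562, a human line from a chronic myelogenous leukemia, in which genome editing had put an N-terminal dTAG on the endogenous IWS1 protein. All groups carried this allele. The control group received DMSO, the solvent, and the dIWS1 group received 500 nM dTAG7, a ligand that sends tagged protein to the proteasome, both for 1 h. Each group had 2 replicates in the labels. The tagged cells derive from 1 parental line, and the sources used here do not give whether they were 1 clone. An untagged line given dTAG7 was not analysed here.

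Nuclear pore complexes are large channels built from many copies of a limited number of proteins, the nucleoporins. An outer ring and an inner ring form the scaffold, membrane proteins hold it in the nuclear envelope, and nucleoporins with phenylalanine-glycine repeats fill the central channel, the cytoplasmic side and the nuclear basket. Karyopherins, the transport receptors, bind these repeats and their cargo. The small GTPase Ran sets the direction by releasing import cargo and promoting the binding of export cargo to its receptors in the nucleus. IWS1 travels with elongating RNA polymerase II, so the question put to these genes was how much of their RNA was still made within 1 h of its loss.

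The deposited table gives a mean per gene rather than values per library, and whole reads per library column were recovered from these means. A single control column came out, with 29832118 reads (read pairs) in genes, and 2 dIWS1 columns, with 20684301 and 20886697. The control column enters each mean 2 times, with the same reads and the same size factor. No separate reads of another control library were recovered. The labelled control replicates could therefore not be told apart and count here as 1 sample. The dIWS1 columns, named column 1 and column 2 here, could not be matched to a labelled replicate. Reads were divided by the spike-in size factor of each column (1.01 for the control, 0.993 and 0.919 for dIWS1) and called scaled reads. IWS1 itself had 3684 reads in the control column and 2334 and 2427 in the dIWS1 columns, a log2 fold change of -0.55 (SE 0.15, adjusted p = 0.00078). The tag removes the protein, so this transcript does not measure the depletion. All 12 erythroid and K562 marker genes listed for the check had reads, 31033 in sum in the control column and 23628 and 24552 in the dIWS1 columns. Of the lymphoid markers only CD3D was among the genes with reads, and of the epithelial markers KRT8 and KRT18.

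Scaled to the spike-ins, RNA synthesis of the pore and transport genes was lower in dIWS1 cells, by about as much as that of all genes, while scaling by total reads or by median ratios turned the members' median to 0.046 and 0.026 on the log2 scale. Both dIWS1 columns lay below the control column for all 45 members, which was also the case for 92.1% of all genes. The limma voom test over all genes (adjusted p under 0.05) called 28 of the 45 members lower, 62.2%, beside 64.5% of all genes. With the dIWS1 columns brought to a common median, an alternative added after seeing the data, 41 members were called lower, 91.1%, beside 74.0% of all genes. With spike-in scaling no member was called higher (0 of 45), beside 0.109% of all genes. At an unadjusted p under 0.05, 0 were higher, and limma trend called 0 higher as well. Scaling by total reads called 9 members higher, beside 1471 of all genes, and scaling by median ratios 0, beside 127. The median log2 fold change over the members was -0.40 (quartiles -0.49 and -0.30), beside -0.43 over all genes (quartiles -0.60 and -0.26). The scalings by total reads and by median ratios moved the median of all genes from -0.43 to 0.02 and -0.0034. They called 4 and 2 members lower, 8.9% and 4.4%, beside 10.5% and 2.4% of all genes. With spike-in scaling the single columns gave member medians of -0.46 in column 1 and -0.31 in column 2. Column 1 lay below column 2 for 44 of 45 members, by a median of 0.16, and this common offset enters the error of every gene. The fit takes the lone control column to vary as the dIWS1 columns do. In bulk libraries scaled by added RNA, fewer cells and less labelled RNA per cell cannot be told apart.

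**Figure D1:**
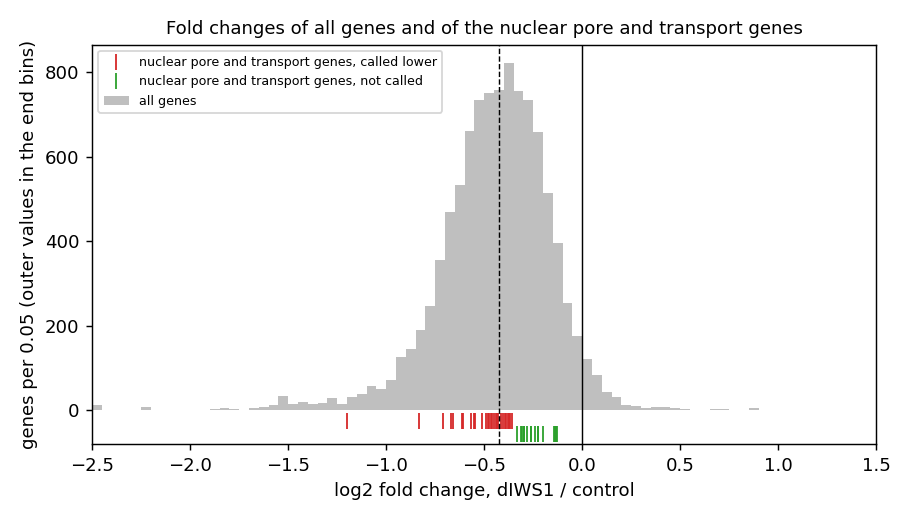
Log2 fold changes of RNA synthesis (horizontal axis, dIWS1 over control) of all 10136 genes as a histogram in steps of 0.05, with one tick under the axis for each of the 45 nuclear pore and transport genes, red where called lower and green where not. The dashed line marks the median gene at -0.43. The ticks spread on both sides of it, and IPO13 at -1.20 stands alone at the left.

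Because most genes lay lower with spike-in scaling, each gene was also compared with the median gene. Of the 45 members, 25 lay above the median gene and 20 below it. IPO13 was the 1 member called lower relative to the median gene, beside 4.78% of all genes. No member was called higher relative to it, with 1 at an unadjusted p under 0.05, beside 3.01% of all genes called higher. Between members the log2 fold change ran from -1.20 for IPO13 to -0.13 for KPNA5.

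**Figure D2:**
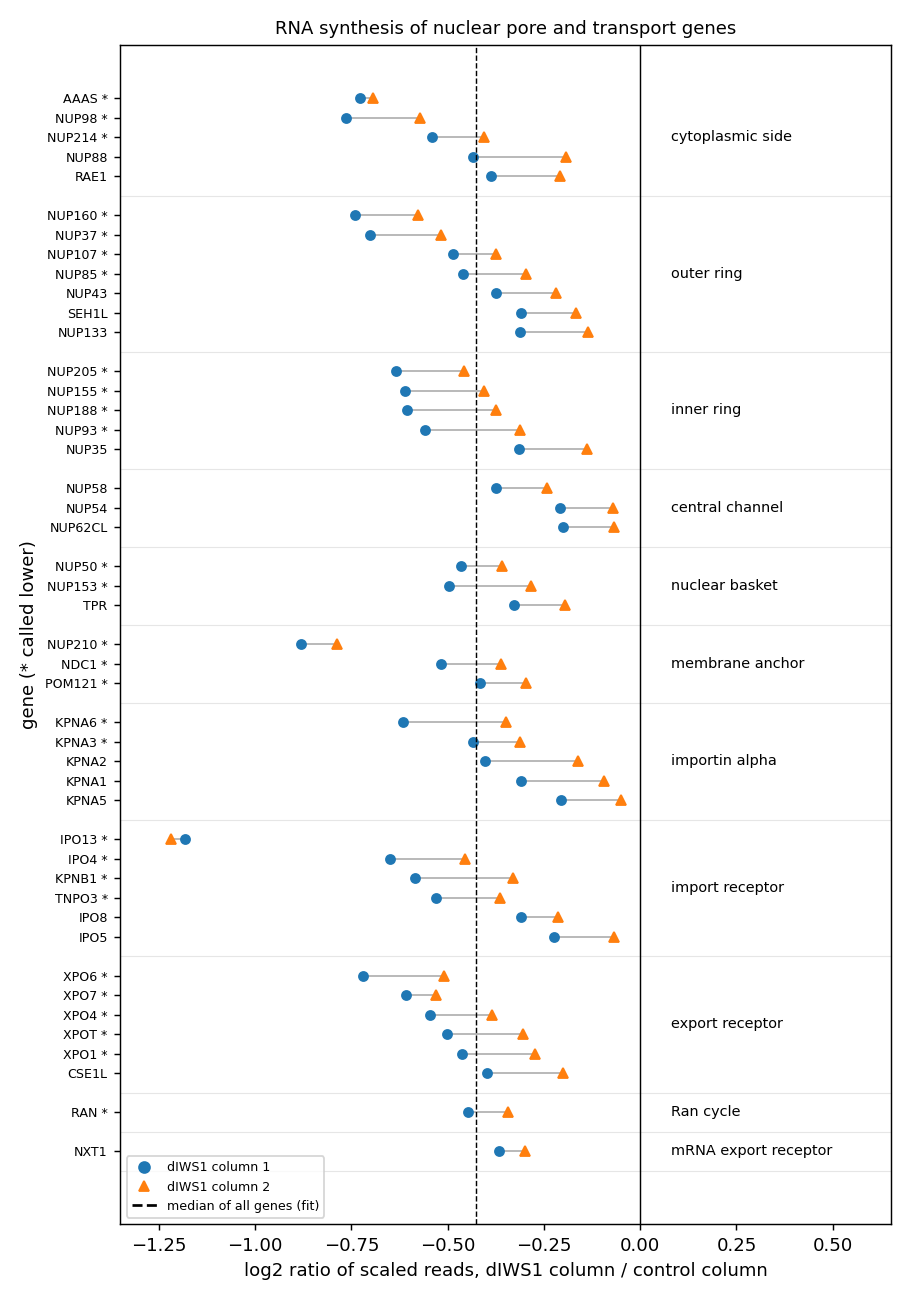
Log2 ratios of scaled reads (horizontal axis) of the 45 genes, ordered within role groups, for dIWS1 column 1 (circles) and column 2 (triangles), each over the control column. Asterisks mark genes called lower, the solid line marks no change and the dashed line the median gene at -0.43. With spike-in scaling all points lie left of 0, and since both sets of ratios share the 1 control column, a like order of genes in them is no replicate check.

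IPO13, an importin beta family receptor that carries cargo both into and out of the nucleus, had the lowest value. The gene (gene 9670 in RefSeq) spans 43946950 to 43968022 on chromosome 1, plus strand, and has 20 exons. It had 517 reads in the control column and 224 and 202 in the dIWS1 columns. Both dIWS1 columns held less than the control by a similar margin, with log2 ratios of -1.18 and -1.22, and IPO13 was the only member for which column 2 was the lower one. Its log2 fold change was -1.20 (SE 0.14, adjusted p = 4.51e-16), a level 56.5% below the control. Against the median gene its value was -0.77 (adjusted p = 2.43e-06). Only 2.22% of all genes had a lower fold change.

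The promoters of the members were set beside this range as a description. RefSeq sequence of the 250 bases before the gene start (GRCh38.p14) was given for 41 of the 45 members and for 8025 of all genes. The letters CCGGAAG or CTTCCGG, a core bound by ETS family factors, were found on either strand in 15 of 41 members, 36.6%, beside 18.1% of all genes. The NRF1 letters, a palindrome printed in capitals in the NUP107 promoter ahead of its ETS letters, were in 2 of 41, NUP107 and NUP50, beside 2.08% of all genes. CCAAT or ATTGG was in 43.9% of members and 36.1% of all genes, and the GC box GGGCGG or CCGCCC in 58.5% and 68.8%. The E-box CACGTG was in 12.2% and 9.27%, and TATAAA or TTTATA in KPNA6 alone among the members, beside 5.12% of all genes. None of these letter groups contains another. With the ETS letters the members' median log2 fold change was -0.40 and without them -0.39.

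The promoter sequences that follow run 5′ to 3′ along the coding strand up to the base before the gene start, with the NRF1 and ETS letters in capitals. They show IPO13, the lowest member, which holds neither, NUP107 and NUP50, which hold both, and NUP54, one of the least changed members, which holds the ETS letters on both strands.
IPO13 (chr1:43946700-43946949, plus strand): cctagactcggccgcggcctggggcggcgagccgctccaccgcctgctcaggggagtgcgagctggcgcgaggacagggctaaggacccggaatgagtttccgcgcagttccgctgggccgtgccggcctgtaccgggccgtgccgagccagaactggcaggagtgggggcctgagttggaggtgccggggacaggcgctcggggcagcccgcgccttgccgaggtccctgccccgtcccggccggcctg
NUP107 (chr12:68686728-68686977, plus strand): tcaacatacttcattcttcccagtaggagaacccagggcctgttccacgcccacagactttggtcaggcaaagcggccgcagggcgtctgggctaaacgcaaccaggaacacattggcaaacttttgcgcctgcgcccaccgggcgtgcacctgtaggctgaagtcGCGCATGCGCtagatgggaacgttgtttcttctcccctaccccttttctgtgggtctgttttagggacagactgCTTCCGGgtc
NUP50 (chr22:45163675-45163924, plus strand): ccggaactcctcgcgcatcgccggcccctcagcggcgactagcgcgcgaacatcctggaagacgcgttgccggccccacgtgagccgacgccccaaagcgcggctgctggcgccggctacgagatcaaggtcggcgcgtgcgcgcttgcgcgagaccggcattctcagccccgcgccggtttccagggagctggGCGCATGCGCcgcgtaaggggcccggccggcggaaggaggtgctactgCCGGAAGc
NUP54 (chr4:76148398-76148647, minus strand): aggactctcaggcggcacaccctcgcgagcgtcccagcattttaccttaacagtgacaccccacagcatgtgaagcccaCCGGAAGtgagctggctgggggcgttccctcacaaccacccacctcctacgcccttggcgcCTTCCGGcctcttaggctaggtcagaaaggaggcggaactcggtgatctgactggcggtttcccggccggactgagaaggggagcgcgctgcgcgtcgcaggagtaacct

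In NUP107 the NRF1 letters began 84 bases and the ETS letters 10 bases before the gene start. In NUP50 these distances were 56 and 8 bases. NUP54 had its ETS letters 171 and 110 bases before the start. The IPO13 promoter was 74.8% G and C and the NUP54 promoter 63.2%, beside a median of 63.2% over the members and 65.2% over all genes. Over 41 members the log2 fold change and the G and C content of the promoter had a Pearson correlation of -0.33 (Spearman -0.25), given as a description over genes that share the same libraries.

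On the cytoplasmic side of the pore, 3 of 5 genes were called lower, beside 64.5% of all genes, and the median was -0.47. AAAS, which encodes the pore protein ALADIN, had 806 reads in the control column and 479 and 454 in the dIWS1 columns. Its log2 fold change was -0.71 (SE 0.13, adjusted p = 7.41e-07), the lowest of the group. NUP98, whose transcript encodes both NUP98 and the outer ring protein NUP96, had 18392 reads in the control column and 10652 and 11279 in the dIWS1 columns, a log2 fold change of -0.67 (SE 0.14, adjusted p = 2.17e-05). NUP214, a docking site for export complexes, had 68251, 46180 and 46916 reads and a log2 fold change of -0.47 (SE 0.13), and lost the call under limma trend. RAE1, an mRNA export factor that binds NUP98, had the highest value of the group. It had 1898 reads in the control column and 1428 and 1496 in the dIWS1 columns, a log2 fold change of -0.30 that was not called (adjusted p = 0.0571). NUP88, the partner of NUP214, was not called either, with log2 ratios of -0.43 in column 1 and -0.19 in column 2. AAAS lay 0.34 below RAE1 in column 1 on the log2 scale and 0.48 below it in column 2. Such gaps between the lowest and the highest member of a group rest on the same control column in both cases, so their likeness is no replicate check.

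In the outer ring, also called the Y complex, 4 of 7 genes were called lower, beside 64.5% of all genes, and the median was -0.38. NUP160 (chromosome 11, 47778118 to 47848544, minus strand) had 6307 reads in the control column and 3711 and 3853 in the dIWS1 columns. Its log2 fold change was -0.66 (SE 0.15, adjusted p = 6.36e-05). NUP133 (chromosome 1, 229440259 to 229508341, minus strand) had 7385 reads in the control column and 5854 and 6124 in the dIWS1 columns, a log2 fold change of -0.22 (adjusted p = 0.167). The products of both genes are subunits of the same complex. As the lowest and the highest of the 7 genes, NUP160 lay 0.43 and 0.44 below NUP133 on the log2 scale in columns 1 and 2. This difference was not tested, and neither gene was called relative to the median gene. Both spans are of similar length, 70.4 kb for NUP160 and 68.1 kb for NUP133. NUP37 at -0.61, NUP107 at -0.43 and NUP85 at -0.38 were the other outer ring genes called lower. NUP43 at -0.30 and SEH1L at -0.24 were not called.

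Inner ring genes gave the lowest median among the scaffold groups, -0.49, and 4 of 5 were called lower, beside 64.5% of all genes. NUP205, one of the large scaffold proteins, had 18741 reads in the control column and 11884 and 12428 in the dIWS1 columns, a log2 fold change of -0.55 (SE 0.14, adjusted p = 0.000478). NUP155 at -0.51, NUP188 at -0.49 and NUP93 at -0.44 were called lower as well. NUP35, the smallest inner ring protein and a membrane-binding one, had 3457 reads in the control column and 2735 and 2862 in the dIWS1 columns. At -0.23 (adjusted p = 0.167) it was not called, and NUP205 lay 0.32 below it in each dIWS1 column on the log2 scale.

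All 3 membrane anchors were called lower, beside 64.5% of all genes, with a median of -0.44, and POM121 lost the call under limma trend. NUP210, a transmembrane nucleoporin with most of its mass in the envelope lumen, spans 13316235 to 13420322 on chromosome 3, minus strand. It had 11233 reads in the control column and 5996 and 5931 in the dIWS1 columns, so that both dIWS1 columns were close to each other and far below the control. Its log2 fold change of -0.83 (SE 0.15, adjusted p = 2.65e-07) was a level 43.9% below the control. Against the median gene its value was -0.41 and not called (adjusted p = 0.0621). It was called with the dIWS1 columns aligned, with total reads, with median ratios or among genes with a mean of at least 100. These fits called 967, 1167, 235 and 471 of all genes lower than the median gene. It was also called with the control column entered 2 times, beside 1585 of all genes, but that fit repeats the same reads. NDC1, which is needed to insert pores into the envelope, was at -0.44 (adjusted p = 0.00733). POM121 had 12266 reads in the control column and 9051 and 9091 in the dIWS1 columns, a log2 fold change of -0.36 (SE 0.15, adjusted p = 0.0252). POM121 has a near-identical copy, POM121C, and since the authors kept unique alignments only, the split of reads between the copies is uncertain. POM121C had 7093, 5181 and 5450 reads and a log2 fold change of -0.34 (adjusted p = 0.0383).

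By group median the central channel genes lay nearest to the control, at -0.14 (-0.21 in column 1 and -0.07 in column 2). None of 3 was called lower, beside 64.5% of all genes. KPNA5 at -0.13 and IPO5 at -0.15, from other groups, lay about as near as NUP54 and NUP62CL. NUP54 and NUP58 were called lower with the dIWS1 columns aligned, beside 74.0% of all genes. NUP58 was also called with the control column entered 2 times, which repeats the same reads, beside 77.8% of all genes. NUP54, which forms the channel core with NUP58 and NUP62, had 5997 reads in the control column and 5109 and 5201 in the dIWS1 columns, a log2 fold change of -0.14 (SE 0.15, adjusted p = 0.394). NUP62CL, grouped here for its likeness in name and sequence to NUP62, had 4428 reads in the control column and 3790 and 3850 in the dIWS1 columns, a log2 fold change of -0.13 (adjusted p = 0.416). NUP58 was at -0.31 with 3897, 2956 and 2999 reads (adjusted p = 0.0599). All 3 lay above the median gene, by 0.29 for NUP54, 0.29 for NUP62CL and 0.12 for NUP58 on the log2 scale, and none of these differences was called. NUP54 and NUP62CL were called higher than the median gene with the control column entered 2 times, with the dIWS1 columns aligned and with total reads. These fits called 1134, 1004 and 1280 of all genes higher than the median gene.

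In the nuclear basket 2 of 3 genes were called lower, beside 64.5% of all genes, with a median of -0.39. NUP50, which helps importin alpha to release cargo, had 2049 reads in the control column and 1461 and 1454 in the dIWS1 columns, a log2 fold change of -0.41 (adjusted p = 0.00876). NUP153, the anchor of the basket, had 21523, 15009 and 16107 reads and a log2 fold change of -0.39, and lost the call under limma trend. TPR, its filament protein, had 10048 reads in the control column and 7870 and 7987 in the dIWS1 columns, and at -0.26 (adjusted p = 0.101) was not called. The basket genes differed little, and NUP50 lay 0.14 below TPR in column 1 and 0.16 below it in column 2.

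The adaptors of classical import, the importin alpha genes, had a median of -0.28, and 2 of 5 were called lower, beside 64.5% of all genes. KPNA6, on the plus strand of chromosome 1, had 9497 reads in the control column and 6101 and 6789 in the dIWS1 columns, a log2 fold change of -0.48 (SE 0.15, adjusted p = 0.00283). It also had the widest gap between the dIWS1 columns of any member, 0.27 on the log2 scale. KPNA3 was called lower at -0.37, but not under limma trend with a pseudocount of 2. KPNA5 had 2215 reads in the control column and 1890 and 1947 in the dIWS1 columns, and its log2 fold change of -0.13 (SE 0.15, adjusted p = 0.423) was the highest of all 45 members. In column 1 alone it was -0.21 and in column 2 -0.05, and in column 1 NUP62CL at -0.20 lay above it. KPNA2 at -0.28, with 2330, 1733 and 1897 reads, and KPNA1 at -0.20, with 8260, 6556 and 7054 reads, were not called.

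Of the import receptors of the importin beta family, 4 of 6 were called lower, beside 64.5% of all genes, with a median of -0.45. Besides IPO13 these were IPO4, KPNB1 and TNPO3. IPO4, a carrier of histones and ribosomal proteins, had 461 reads in the control column and 289 and 306 in the dIWS1 columns, a log2 fold change of -0.55 (SE 0.13). KPNB1, importin beta itself, had 11073 reads in the control column and 7268 and 8016 in the dIWS1 columns, a log2 fold change of -0.46 (SE 0.15, adjusted p = 0.00431). TNPO3, which imports splicing factors of the SR family, was at -0.45. IPO8 was not called at -0.26, nor was IPO5 with 3926 reads in the control column and 3307 and 3411 in the dIWS1 columns. IPO5, a carrier of ribosomal proteins and histones, had a log2 fold change of -0.15 (adjusted p = 0.375). This group had the widest range, with IPO13 0.96 below IPO5 in column 1 on the log2 scale and 1.15 below it in column 2.

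Export receptors were called lower in 5 of 6 genes, beside 64.5% of all genes, with a median of -0.43, and XPO1 and XPOT lost the call under limma trend. XPO6, which exports actin bound to profilin, had 13693 reads in the control column and 8178 and 8754 in the dIWS1 columns, a log2 fold change of -0.62 (SE 0.15, adjusted p = 0.000116). XPO7 at -0.57, XPO4 at -0.47 and the tRNA exporter XPOT at -0.40 were called lower too. XPO1, the receptor for leucine-rich export signals, had 13715 reads in the control column and 9795 and 10336 in the dIWS1 columns, and was called lower at -0.37 (SE 0.14, adjusted p = 0.02). CSE1L, which returns importin alpha to the cytoplasm, had 7442 reads in the control column and 5561 and 5895 in the dIWS1 columns, a log2 fold change of -0.30 (adjusted p = 0.0654). XPO6 lay 0.32 below CSE1L in column 1 and 0.31 below it in column 2 on the log2 scale.

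RAN, the GTPase that gives transport its direction, had 2788 reads in the control column and 2011 and 2000 in the dIWS1 columns. It was called lower with a log2 fold change of -0.40 (SE 0.15, adjusted p = 0.0142), which is the median member. RAN has processed copies elsewhere in the genome, so reads that match both are uncertain. NXT1, the small partner of the mRNA export receptor NXF1, had the fewest reads of any member, 177 in the control column and 135 and 131 in the dIWS1 columns. At -0.33 (SE 0.17, adjusted p = 0.0684) it was not called. Taken by kind, 16 of the 26 pore protein genes were called lower with a median of -0.40, and 12 of the 19 receptor and Ran cycle genes with a median of -0.40. Both counts stand beside 64.5% of all genes.

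How strongly the genes were transcribed was compared as scaled reads per kb of gene span. In the control column the median over the members was 88.7 scaled reads per kb, beside 40.7 over all genes, and 42 of 45 members lay above the latter. NUP214 had the highest level, 620 scaled reads per kb in the control column and 426 and 468 in the dIWS1 columns. RAN followed with 492 in the control column and 361 and 388 in the dIWS1 columns, and KPNB1 with 308, 206 and 245. At the low end were IPO8 at 37.8, KPNA5 at 36.2 and IPO13 at 24.3 scaled reads per kb in the control column, the 3 members under the median level of all genes. In the dIWS1 columns IPO13 was at 10.7 and 10.4, while KPNA5 was at 31.4 and 34.9. With 1 control column the order of levels has no replicate check.

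**Figure D3:**
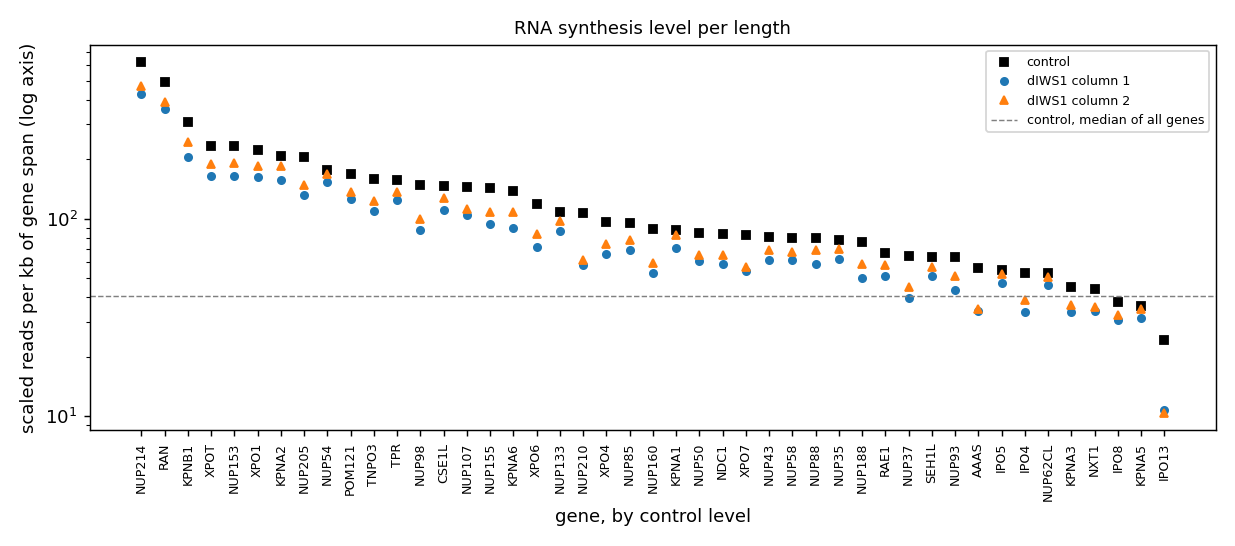
Scaled reads per kb of gene span (vertical log axis) of the 45 genes in the control column (squares) and dIWS1 columns 1 and 2 (circles and triangles), ordered by the control level. The dashed line marks the control median of all genes, 40.7. NUP214 at 620 and RAN at 492 stand at the top and IPO13 at 24.3 at the bottom, where the gap between control and dIWS1 is widest.

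Level and length were then set beside the fold change. Over 45 genes the Pearson correlation of the log2 fold change with the control level per kb was 0.07 (Spearman -0.13), and with gene length -0.01 (Spearman -0.20), both given as descriptions over genes of the same libraries. The members are long genes, with a median span of 60.8 kb. Genes were split into 4 length classes at bounds the study uses. Of the 21 members in the longest class (66.9 to 125 kb), 16 were called lower with a median of -0.45, beside 78.2% called lower and a median of -0.49 among all genes of the class. Of the 16 members in the long class (27.9 to 63.6 kb), 7 were called lower with a median of -0.31, beside 57.4% and -0.35. The 5 members of the short class (11.1 to 25 kb), IPO13 among them, had a median of -0.41, beside -0.39 for all such genes. The 3 members of the shortest class (3.98 to 8.6 kb), IPO4, RAN and NXT1, had a median of -0.40, beside -0.49. In each length class the members' median lay within the quartiles of all genes of that class.

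**Figure D4:**
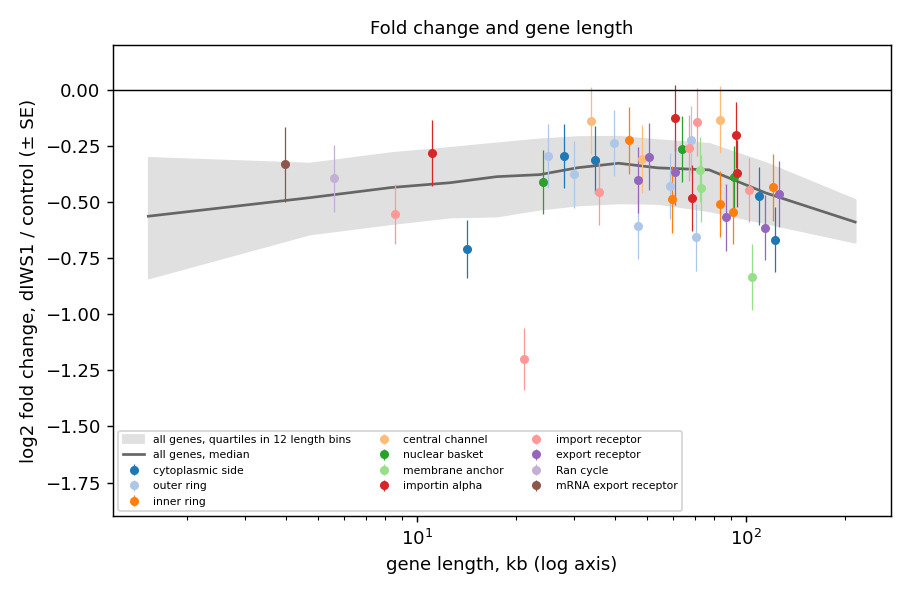
Log2 fold change with its standard error (vertical axis) against gene length in kb (log axis) for the 45 genes, coloured by role. The line and band are the median and quartiles of all genes in 12 length bins. Most members lie in or near the band, IPO13 at -1.20 and NUP210 at -0.83 lie farthest below it, and NUP54, NUP62CL, IPO5 and KPNA5 are among those above it.

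Genes that act beside the pore but were not members had values in a like range. The counts called lower in these lists stand beside 64.5% of all genes. Of 6 other pore genes with reads, 4 were called lower and the median was -0.32. SEC13, shared between the outer ring and vesicle coats, was the lowest of them at -0.42 (1803, 1266 and 1276 reads, adjusted p = 0.00613), and NUPL2 the highest at -0.16 and not called. Of 14 genes of the Ran cycle and transport adaptors, 10 were called lower and the median was -0.41. RANGRF, a Ran-binding protein, had the lowest value of this list at -0.87, but from only 29 reads in the control column and 13 and 17 in the dIWS1 columns (SE 0.36, adjusted p = 0.028). SNUPN, the import adaptor of spliceosomal snRNPs, was at -0.72 with 728, 399 and 440 reads (adjusted p = 5.28e-07). NMD3, the export adaptor of the large ribosomal subunit, was the highest at -0.14 and not called. Of 21 mRNA export genes, 11 were called lower and the median was -0.28. THOC6 of the THO complex was the lowest of these at -0.64 (198, 125 and 115 reads), and ENY2, a small subunit of the TREX-2 and SAGA complexes, was the highest. ENY2 had 911 reads in the control column and 927 and 983 in the dIWS1 columns, a log2 fold change of 0.15 (SE 0.13, adjusted p = 0.306). Against the median gene it was 0.57 higher and called (adjusted p = 0.000811), the one such call in the 3 lists.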

How the data were processed

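TT-seq was measured in 2 control and 2 dIWS1 samples. Per the paper's methods, the authors used STAR 2.6.0 and a GRCh38 reference to which the spike-in sequences had been joined, accepted alignments to a single place, and assigned read pairs to RefSeq genes by strand. Overlapping genes and genes of low density were left out by the authors. The authors modelled the comparison in DESeq2, with spike-in size factors. One deposited signal column was used here, which holds for each gene the counts, scaled by size factor, averaged over the library columns. The other columns of the table hold the authors' own comparison (log2 fold change, standard error, statistic, p-value, adjusted p-value). Of these only the deposited log2 fold change was used, to narrow the search for whole reads and to tell which column is the control, reading its direction as dIWS1 over control. None of these values is reported.

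Reads per column were recovered by writing each mean as a sum of whole multiples of 3 steps (relative tolerance 6e-15). All 10136 genes with a mean above 0 had 1 solution (100%). Since the reads are recovered rather than read from a count table, limma voom (limma 3.58.1, R 4.3.3) was used, with library sizes from the spike-in size factors, 1 control column against 2 dIWS1 columns, and two-sided p-values adjusted by Benjamini-Hochberg over 10136 genes. Calls relative to the median gene used the fold change minus the median and the same standard error. The recovery and the fit were first tested on simulated data. Log2 ratios of single columns used a pseudocount of 0.5. No spread between control libraries enters any p-value, and p-values measure the spread between the recovered columns only. In the reported fit this spread was pooled over all genes by read level (10136 degrees of freedom). A gene's own gap between the dIWS1 columns therefore does not set its standard error or p-value. Gene spans and promoters came from RefSeq (GRCh38.p14), in which all 45 members were matched by symbol. Levels per kb used the whole span.

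The members and lists were chosen with earlier results of these data known. In each role group the lowest and the highest member are given with reads in every column, as are members called relative to the median gene and those with the fewest reads, and from each other list the lowest and highest gene. SNUPN, POM121C and the further members given with reads were named after their values were seen. Alternatives were other scalings, limma trend, the control entered 2 times, filters on low means, other thresholds, a minimum change, leaving out each dIWS1 column and, added after seeing the data, dIWS1 columns aligned to a common median. Entering the control 2 times repeats the same reads, so that fit has no spread within the control and understates the error. Its calls are no replicate evidence. Scripts used Python 3.11.15, numpy 2.4.6, pandas 2.3.3, numba 0.67.0 and matplotlib 3.10.9.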

Additional observations from a re-analysis of the deposited data

How the results depend on the processing

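No paired analysis was possible because the recovered columns carry no replicate number. Scaling decided the direction against the control. Calls relative to the median gene do not depend on a common shift, and differ between scalings through the error of the fit. The degrees of freedom were 10136 as reported, 7.2 by total reads and 4.2 by median of ratios. With columns scaled by total reads, 4 members were called lower and 9 higher, the members' median was 0.046, 1062 of all genes were lower and 1471 higher, and relative to the median gene 5 members were lower and 7 higher, beside 1167 and 1280 of all genes (484 and 305 as reported). With median-of-ratios scaling, 2 members were called lower, their median was 0.026, all genes gave 243 lower and 127 higher, and relative to the median gene 2 members, IPO13 and NUP210, were lower, beside 235 of all genes. Both scalings centre the genes by construction. With dIWS1 values shifted up by 0.2 on the log2 scale, 9 members were lower, their median was -0.20, and all genes gave 2747 lower and 55 higher. With a shift down by 0.2, 45 members were lower, beside 9119 of all genes, their median was -0.60, and 4 of all genes were higher. With the control entered 2 times, 37 members were lower (82.2%, beside 77.8% of all genes), 61 of all genes were higher, and relative to the median gene 3 members were lower (IPO13, NUP210, AAAS) and 3 higher (NUP54, NUP62CL, KPNA5), beside 1585 and 1134 of all genes. With the dIWS1 columns aligned, an alternative chosen after seeing the data, 41 members were lower (91.1%, beside 74.0% of all genes), 18 of all genes were higher, and relative to the median gene 4 members were lower and 4 higher (IPO5, NUP54, NUP62CL, KPNA5), beside 967 and 1004 of all genes. Limma trend with a pseudocount of 0.5 gave 23 members lower (51.1%, beside 55.2% of all genes) and 26 of all genes higher, and with 2 it gave 22 members lower (48.9%, beside 55.2%) and 19 of all genes higher. NUP214, XPOT, NUP153, XPO1 and POM121 lost their calls under both, and KPNA3 with 2. Genes with a mean of at least 100 gave 2 members lower relative to the median gene, beside 471 of all genes. At an adjusted p under 0.01, 6 of all genes were higher. At 0.1, 23 of all genes were higher. At this threshold 2 members were lower relative to the median gene. The share of all genes so called was not counted, so these 2 cannot be weighed. A change of at least 0.5 was passed by 11 members, 3755 of all genes lower and 4 higher. Without one dIWS1 column, which leaves no test, the members' median ran from -0.46 to -0.31. IPO13 was called lower relative to the median gene under every alternative with a test.

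Log2 fold changes of the following genes turned sign. By total reads they became NDC1 0.0031, NUP93 0.0064, NUP107 0.013, NUP50 0.030, XPOT 0.038, RAN 0.046, NUP153 0.052, NUP85 0.063, KPNA3 0.068, XPO1 0.075, POM121 0.086, NXT1 0.11, NUP88 0.13, NUP58 0.13, CSE1L 0.14, RAE1 0.14, NUP43 0.14, KPNA2 0.16, TPR 0.18, IPO8 0.18, SEH1L 0.20, NUP35 0.22, NUP133 0.22, KPNA1 0.24, IPO5 0.30, NUP54 0.30, NUP62CL 0.31, KPNA5 0.31, NMD3 0.30, SEC13 0.017 and NUPL2 0.28. By median of ratios they became NUP50 0.010, XPOT 0.019, RAN 0.026, NUP153 0.032, NUP85 0.044, KPNA3 0.048, XPO1 0.055, POM121 0.066, NXT1 0.090, NUP88 0.11, NUP58 0.11, CSE1L 0.12, RAE1 0.12, NUP43 0.13, KPNA2 0.14, TPR 0.16, IPO8 0.16, SEH1L 0.18, NUP35 0.20, NUP133 0.20, KPNA1 0.22, IPO5 0.28, NUP54 0.28, NUP62CL 0.29, KPNA5 0.29, NMD3 0.28 and NUPL2 0.26. Shifted up by 0.2 they became IPO5 0.054, NUP54 0.061, NUP62CL 0.066, KPNA5 0.072, NMD3 0.057 and NUPL2 0.039, and shifted down by 0.2 ENY2 became -0.052.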

Other observations

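NUP214 lies on chromosome 9 from 131125586 to 131234663 (GRCh38), and its control level of 620 scaled reads per kb was above that of 98.9% of all genes. As background, K562 cells carry extra copies of part of this chromosome arm, joined to the BCR gene at ABL1. ABL1, whose midpoint lies 380 kb from that of NUP214, had 265 scaled reads per kb in the control column (above 97.0% of genes), from 46792 reads in the control column and 26047 and 25615 in the dIWS1 columns. EXOSC2, AIF1L and FAM78A nearby were above 85.2%, 25.5% and 28.1% of genes. The log2 fold changes were -0.47 for NUP214, -0.78 for ABL1 (SE 0.13, adjusted p = 1.37e-07), -0.48 for EXOSC2, -0.45 for AIF1L and -0.03 for FAM78A (adjusted p = 0.852). Copy number was not measured here, and its part in the level of NUP214 was not tested. These genes were chosen after their values were seen.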
